A study of Mus musculus with 8 samples.

Results

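Heat shock proteins are molecular chaperones: they bind unfolded or newly made proteins, keep them from clumping and pass them on for folding or breakdown. The HSP70 proteins do this in an ATP-driven cycle with J-domain helpers and exchange factors, HSP90 matures kinases and hormone receptors, small heat shock proteins hold unfolded proteins without using ATP, and HSP60 with HSP10 forms the folding chamber of the mitochondrial matrix. Many of their genes are switched on by heat shock factor HSF1, which binds repeats of the letters GAA and TTC, and pancreatic acinar cells, which make large amounts of secreted protein, fold those proteins in the endoplasmic reticulum with a separate set of chaperones. The 10 genes described here were chosen by symbol from the deposited tables: Hspa8, Hspa1a, Hspa1b and Hsph1 (HSP70 and HSP110 proteins), Dnajb1 (HSP40), Hsp90aa1 (HSP90), Hspb1 and Cryab (small heat shock proteins), and Hspd1 and Hspe1 (mitochondrial HSP60 and HSP10). All 10 were found, once each, among 36432 gene IDs.

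Poly(A) RNA was sequenced from the whole pancreas of 8 mice aged 6 to 8 weeks, of a strain given as mixed. The deleted group had, per its labels, the genotype Ptf1a-Cre +/KI; Gata6 lox/lox (4 libraries), and the controls had the genotype Ptf1a-Cre +/KI (4 libraries). All 8 thus carried Cre inserted at 1 copy of Ptf1a, a gene of pancreatic progenitors and acinar cells, and whole pancreas also holds fat, immune and stromal cells outside that lineage. The comparison asks how the adult pancreas differs when the gene for the transcription factor Gata6 is targeted in its progenitors. Levels are given as rescaled FPKM, the deposited FPKM (fragments per kilobase, scaled per library by the authors' software) divided by 100000, and they are per length, which allows levels of different genes to be set side by side where enough fragments stand behind them. Each library has a title of its own that reads as an animal number, and p-values measure the spread between these libraries.

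Gata6 itself averaged 4.74 ± 0.43 rescaled FPKM in the libraries labelled Gata6-deleted and 2.49 ± 0.28 in controls (SD, n = 4 each). In limma it was called higher in the libraries labelled deleted (log2 fold change 0.72, adjusted p = 0.0443), as were 0.219% of all genes tested. Its gene-level value thus did not check the label, and the libraries are called labelled libraries 1 to 4 below. A gene-level FPKM does not resolve the floxed part. Fragment numbers implied by the deposited intervals summed to between 5325819 and 8957966 in the labelled libraries and between 6731348 and 7918011 in controls. The summed level of 21 acinar enzyme genes, the defining products of the organ, came to 9239 rescaled FPKM in labelled library 1, 324121 in 2, 81768 in 3 and 411441 in 4, while the controls spanned 531121 to 761446. Of 29 listed enzyme genes, those flagged HIDATA in any library, Ctrb1 and Pnlip among them, were left out of the sum. Of the 21 summed, 20 had a negative log2 fold change, and Ctrc had 1.18. Labelled libraries 1 and 3 stood apart in the enzyme sum. Their myeloid, fibroblast and immediate early sums were also the highest of the 8 libraries. In whole tissue, fewer cells of a type and less RNA per cell cannot be told apart. Labelled libraries 1, 3 and 4 and control 1 have titles starting with BKD and the others ASK or BSH. This split also follows sex, with Xist at 0.00932 or less in the BKD libraries and at 17.3 or more in the others.

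Promoter sequences of 7 of the 10 genes were at hand from RefSeq (build GRCm38.p6; Hspa8, Cryab and Hsp90aa1 were not analysed here). Those of Hspa1a and Hspa1b are shown because the pair is nearly identical, which bears on how far their values can be separated; that of Hspb1 because it holds the letters of a heat shock element at 2 places; and a 30-base stretch before Hspe1 because it also lies before 1 of the 2 starts that the table gives for Hspd1, and past the other. Each is written 5′ to 3′ on the strand of the named gene. The first 3 are the 250 bases before the start of the gene. Capitals mark GAANNTTC or TTCNNGAA, inverted repeats of the HSF1 unit that read the same on both strands.
Hspa1a, chr17:34972157-34972406, minus strand: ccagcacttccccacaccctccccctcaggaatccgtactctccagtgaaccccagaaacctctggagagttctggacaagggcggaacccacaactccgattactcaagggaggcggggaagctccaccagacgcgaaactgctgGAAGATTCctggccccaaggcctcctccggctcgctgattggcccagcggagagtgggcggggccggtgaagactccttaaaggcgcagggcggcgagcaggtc
Hspa1b, chr17:34959239-34959488, minus strand: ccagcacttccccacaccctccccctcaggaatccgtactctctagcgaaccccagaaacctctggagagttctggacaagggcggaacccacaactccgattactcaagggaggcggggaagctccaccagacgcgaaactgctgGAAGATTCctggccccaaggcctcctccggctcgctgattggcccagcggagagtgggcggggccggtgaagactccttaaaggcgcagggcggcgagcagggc
Hspb1, chr5:135887669-135887918, plus strand: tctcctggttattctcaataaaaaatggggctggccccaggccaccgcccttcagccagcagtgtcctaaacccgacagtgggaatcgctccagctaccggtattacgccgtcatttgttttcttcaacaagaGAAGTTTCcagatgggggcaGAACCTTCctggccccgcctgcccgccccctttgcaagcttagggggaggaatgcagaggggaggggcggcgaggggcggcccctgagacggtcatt
Hspe1, chr1:55088051-55088080, plus strand: acggtccgTTCTAGAACCTTCCGGAAggcc

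The Hspa1a and Hspa1b stretches differ at 3 of 250 bases, which are C44T, T47C and T249G (the Hspa1a base first, counted from 1 at the 5′ end of each stretch). Their coding sequences in GENCODE M21, of 1926 and 1929 bases, align at 99.4% identity with an identical run of 638 bases. The Hspe1 stretch holds 3 overlapping copies of the inverted repeat, which Hspd1 shares on the other strand. Searching windows of 300 bases, from 250 before to 50 after the start, the 8-letter forms GAANNTTC or TTCNNGAA were found in 7 of the 10 windows of these 7 genes, against 15.1% of 32851 windows in the table. The 3 without a match were both Dnajb1 windows and 1 of the 2 Hspd1 windows. The 13-letter forms GAANNTTCNNGAA or TTCNNGAANNTTC, which contain the 8-letter ones, were found in 4 of the 10 windows, against 0.603% of all windows. These were both Hsph1 windows, 1 of the 2 Hspd1 windows and the Hspe1 window. The Hsph1 windows overlap each other, that of Hspd1 overlaps that of Hspe1, and the Hspa1a and Hspa1b stretches are nearly identical. Neither the 7 windows with an 8-letter form nor the 4 with a 13-letter form are thus all separate stretches. These matches describe letters, not bound sites.

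None of the heat shock protein genes passed the test between genotypes, and among the 8 tested, Hsp90aa1 and Hspa8 had the largest positive log2 fold changes. The ratios of means were larger for Hspa1a (3.13) and Hspa1b (2.57), which were too low to be tested. Of the 10 genes, 8 reached the expression minimum of a mean of 1 rescaled FPKM and were tested with limma across all 11860 genes that did. Hspa1a and Hspa1b lay below it. Of the 8, 0 passed a Benjamini-Hochberg adjusted p under 0.05 in limma, where 0.413% of all genes tested were called, 0.219% higher and 0.194% lower. At an unadjusted p under 0.05 there were 2 of 8, both higher, against 30.1% of all genes at that level, 17.9% higher and 12.2% lower. The fitted log2 fold change was positive for 6 and negative for 2 of them, with a median of 0.21, and over all genes tested the median was 0.10 with 57.9% positive. These shares and medians lie near those of all genes.

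**Figure D1:**
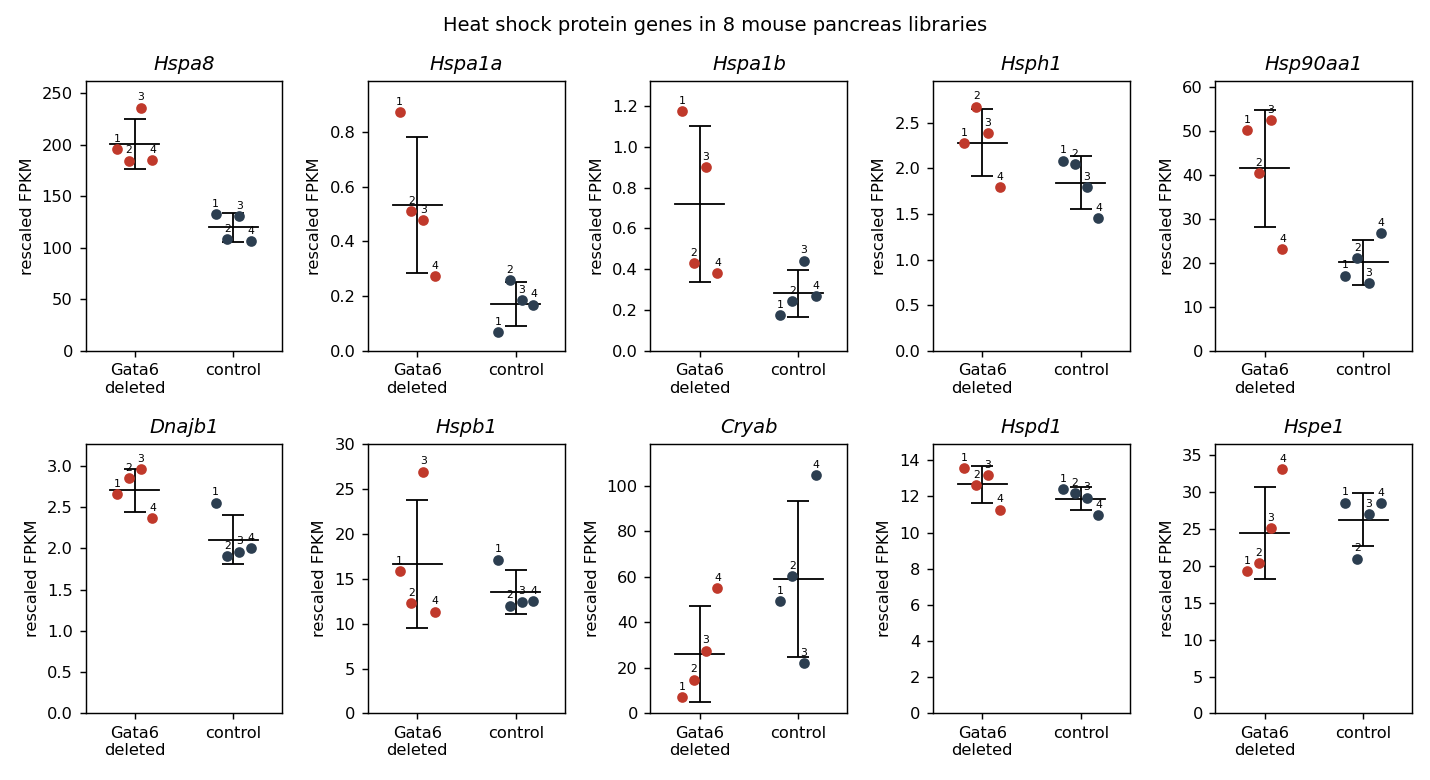
Level of each heat shock protein gene (rescaled FPKM, linear axes from 0) in the 4 libraries labelled Gata6-deleted (left, red) and the 4 controls (right, dark); digits give the library, horizontal lines the mean and bars the SD. The groups do not overlap for Hspa8 and Hspa1a, both higher in labelled libraries, and overlap for the other 8 genes. Of all 11860 genes tested, 10.9% were higher without overlap, a share that does not cover Hspa1a, which was too low to be tested.

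Hspa8 encodes HSC70, the constitutive cytosolic HSP70 that folds new proteins and uncoats clathrin vesicles. It was the most abundant gene of the set and ranked 273 of 36432 by mean level (mm9 chromosome 9, 40609067 to 40613283). Its level was 196, 185, 236 and 185 rescaled FPKM in labelled libraries 1 to 4, against 133, 109, 130 and 107 in controls 1 to 4. Every labelled library lay above every control, as in 10.9% of all genes tested. The means were 200.4 ± 24.3 in labelled libraries and 119.7 ± 13.9 in controls (SD, n = 4 each), a ratio of 1.67. On the log2 scale this was 0.74 (SE 0.21), and limma gave an unadjusted p of 0.00816 and an adjusted p of 0.106, so the difference did not pass over all genes. Between 629 and 2748 fragments were implied behind its values in labelled libraries and between 331 and 406 in controls. Among BKD titles (3 labelled libraries, 1 control) the fold change was 0.62 in log2 and among ASK and BSH titles (1 labelled library, 3 controls) 0.68, values that each rest on a lone library in 1 group. A fit with the prefix as a term gave 0.65 (adjusted p = 0.302 in limma). Without labelled library 4 Hspa8 passed (log2 0.77, adjusted p = 0.0396), in a fit that called 21.6% of all genes tested. It also passed with library weights (0.85, adjusted p = 0.0176), where 32.0% of all genes were called, so nothing particular to Hspa8 is read from either.

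Hsp90aa1 encodes HSP90 alpha, the stress-inducible cytosolic HSP90 (mm9 chromosome 12, 111928815 to 111940938). Its level was 50.1, 40.4, 52.3 and 23.1 rescaled FPKM in labelled libraries 1 to 4, against 17.1, 21.0, 15.4 and 26.8 in controls 1 to 4. Labelled libraries 1 to 3 lay above every control, and labelled library 4 lay below control 4. The means were 41.5 ± 13.3 in labelled libraries and 20.1 ± 5.06 in controls (SD, n = 4 each), a ratio of 2.07. The log2 fold change was 0.98 (SE 0.30, unadjusted p = 0.0104, adjusted p = 0.111 in limma). It was 1.16 among BKD titles and 0.94 among ASK and BSH titles, again with a lone library in 1 group, and 1.05 in the fit with a prefix term (adjusted p = 0.302 in limma). It passed without labelled library 4 (1.23, adjusted p = 0.0347) and with library weights (1.16, adjusted p = 0.0182), the fits that called 21.6% and 32.0% of all genes, and was 0.61 (adjusted p = 0.456) without labelled libraries 1 and 3. Between 35.7 and 270.1 fragments were implied in labelled libraries and between 18.3 and 40.9 in controls.

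**Figure D2:**
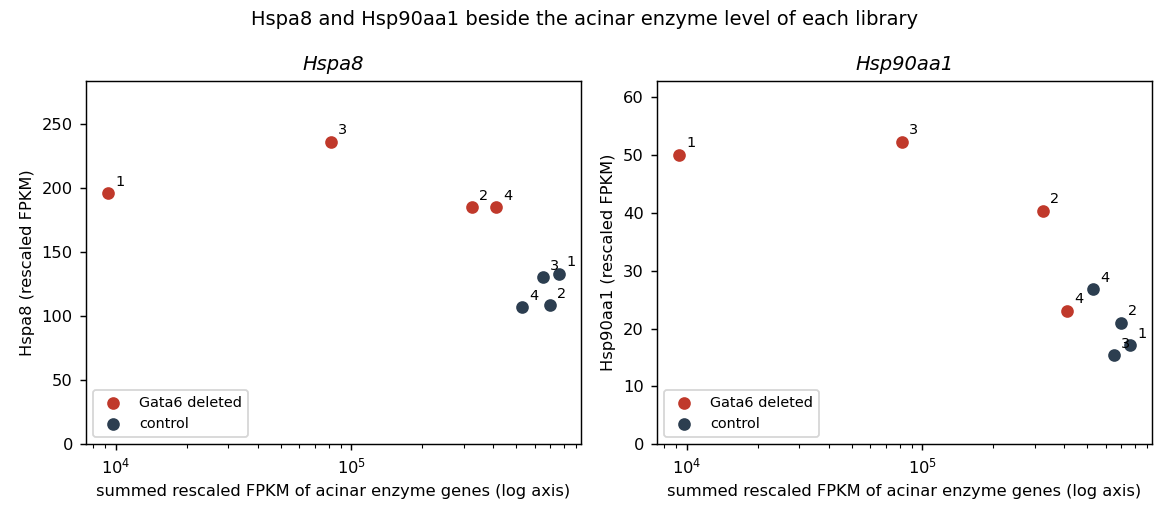
Level of Hspa8 (left) and Hsp90aa1 (right) in rescaled FPKM against the summed level of 21 acinar enzyme genes in the same library (log axis), for libraries labelled Gata6-deleted (red) and controls (dark), numbered by library. Hspa8 was 185 in labelled libraries 2 and 4, whose enzyme sums of 324121 and 411441 were nearest to the controls, while Hsp90aa1 in labelled library 4, at 23.1, lay among the controls.

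The summed markers of some cell types also differed between the groups. The acinar enzyme sum was below every control in all 4 labelled libraries. The summed level of 10 adipocyte markers spanned 409 to 540 rescaled FPKM in labelled libraries and 83.0 to 237 in controls, that of 10 myeloid markers 209 to 780 in labelled libraries and 113 to 201 in controls, and that of 8 fibroblast markers 333 to 1253 in labelled libraries and 206 to 284 in controls. No summed marker of these 4 lists was at 0 in any library. Of the 10 myeloid markers 9 had a positive log2 fold change, though S100a9 was at only 0.01, and S100a8 was at -0.17. In labelled library 3, where Hspa8 and Hsp90aa1 were highest, the fibroblast sum was highest and the adipocyte sum the lowest of the labelled libraries. Sums of duct, islet, lymphocyte, endothelial and smooth muscle markers overlapped between groups, the endothelial at 28.8 to 38.7 in labelled libraries and 33.2 to 42.9 in controls. The sum of 4 acinar transcription factors did not overlap, at 6.16 to 97.6 in labelled libraries and 114 to 149 in controls. Nor did that of 6 Schwann and nerve markers, at 12.0 to 20.9 in labelled libraries and 10.2 to 11.5 in controls. Only 2 of these 6 were tested, Pmp22 at a log2 fold change of 0.99 and Mbp at -0.36. The part of any of these cell types in the levels of Hspa8 and Hsp90aa1 was not tested. The 6 skeletal muscle markers summed to 0.125 to 1.53 in labelled libraries and 0.0938 to 7.62 in controls, with Ckm, Myh1, Myh4, Tnnt3 and Mylpf at 0 in some libraries.

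Hspa1a and Hspa1b encode the inducible HSP70, the classic products of the heat shock response, and were the lowest of the set. Hspa1a (mm9 chromosome 17, 35106144 to 35109069) was at 0.874, 0.51, 0.478 and 0.274 rescaled FPKM in labelled libraries 1 to 4, against 0.0671, 0.26, 0.187 and 0.169 in controls 1 to 4. All labelled libraries lay above all controls, the lowest by a narrow margin (0.274 against 0.26). This held for 10.9% of the genes tested, and no such share was taken over genes as low as Hspa1a. Hspa1b (chromosome 17, 35093943 to 35096181) was at 1.18, 0.431, 0.902 and 0.38 in labelled libraries, against 0.173, 0.243, 0.442 and 0.268 in controls. Here labelled libraries 1 and 3 lay above the controls, and 2 and 4 lay below control 3. The means of Hspa1a were 0.534 ± 0.25 in labelled libraries and 0.171 ± 0.079 in controls, and those of Hspa1b 0.722 ± 0.383 in labelled libraries and 0.281 ± 0.114 in controls (SD, n = 4 each). With no expression minimum, limma gave log2 fold changes of 0.38 (adjusted p = 0.19) and 0.40 (adjusted p = 0.229), on a log2(value + 1) scale that understates changes at such levels. Few fragments were implied, 8.02 to 88.6 per labelled library and 1.66 to 7.51 per control for Hspa1a, and 8.39 to 91.2 per labelled library and 3.34 to 8.39 per control for Hspa1b. Because the coding sequences are nearly identical, the division of reads between these genes is uncertain.

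The co-chaperones of HSP70 in the set differed less. Hsph1, an HSP110 protein that recharges HSP70 with ATP (chromosome 5, 150416862 to 150438951), was at 2.28, 2.68, 2.39 and 1.79 rescaled FPKM in labelled libraries 1 to 4, against 2.09, 2.05, 1.79 and 1.45 in controls 1 to 4. Dnajb1, the HSP40 that delivers clients to HSP70 (chromosome 8, 86132074 to 86135801), was at 2.66, 2.85, 2.96 and 2.36 in labelled libraries, against 2.56, 1.91, 1.96 and 2.00 in controls. For each gene 3 of 4 labelled libraries lay above all controls. The log2 fold changes were 0.21 (SE 0.14) for Hsph1 and 0.26 (SE 0.12) for Dnajb1, with adjusted p of 0.315 and 0.178 in limma.

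Neither small heat shock protein gene passed the test. Hspb1, which encodes HSP25 and also guards actin filaments (chromosome 5, 136363789 to 136365433), was at 15.9, 12.3, 26.9 and 11.3 rescaled FPKM in labelled libraries 1 to 4, against 17.1, 12.0, 12.4 and 12.5 in controls 1 to 4. Labelled library 3 was the highest and control 1 the next. The log2 fold change of 0.21 (SE 0.27, adjusted p = 0.592 in limma) turned to -0.04 without labelled library 3. Cryab, which encodes alpha B crystallin, a small heat shock protein of lens and muscle (chromosome 9, 50560863 to 50564738), was listed at 7.09, 14.8, 27.5 and 55.1 in labelled libraries, against 49.4, 60.3, 22.0 and 105 in controls. Its deposited interval reached down to 0 in all 8 libraries, and the intervals implied only 0.367 to 3.45 fragments, so its level was not resolved in any library. These are not read numbers: in control 1, Cryab at 49.4 implied 0.745 fragments and Hspb1 at 17.1 implied 48.0. The reason for the wide intervals of Cryab was not tested. The log2 fold change of -1.30 (SE 0.65, adjusted p = 0.204 in limma) rests on those values, and was -0.36 under equal sums and -0.01 under equal implied fragment totals.

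The mitochondrial pair had small differences with opposite signs, and neither passed the test. Hspd1, which encodes the HSP60 chamber (chromosome 1, 55134679 to 55145087), was at 13.6, 12.6, 13.2 and 11.3 rescaled FPKM in labelled libraries 1 to 4, against 12.4, 12.2, 11.9 and 10.9 in controls 1 to 4. Its log2 fold change was 0.09 (SE 0.13, adjusted p = 0.648 in limma). The means were 12.7 ± 1.01 in labelled libraries and 11.9 ± 0.639 in controls (SD, n = 4 each). They differed by less than 1 SD of the labelled libraries but by more than 1 SD of the controls. For Hspd1, too, 3 of 4 labelled libraries lay above all controls. Hspe1, which encodes the HSP10 lid (chromosome 1, 55144976 to 55148151), was at 19.3, 20.4, 25.1 and 33.1 in labelled libraries, against 28.6, 21.0, 27.0 and 28.5 in controls. It was lowest in labelled libraries 1 and 2 and highest in labelled library 4. Its log2 fold change was -0.12 (SE 0.21, adjusted p = 0.711 in limma). The mm9 entries of the pair, which lie on opposite strands, share 112 bases, and reads there cannot be told apart unless strand was used, which the sources used here do not give. Pseudogenes of Hspe1 are listed in the tables as entries of their own, so the division of reads between them and Hspe1 is uncertain too.

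**Figure D3:**
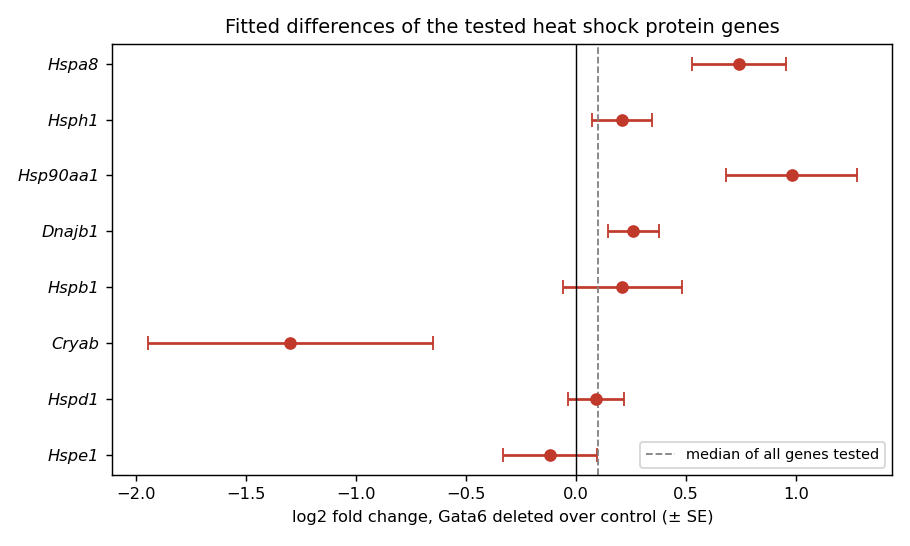
Fitted log2 fold change (libraries labelled Gata6-deleted over controls) with its SE for the 8 heat shock protein genes tested; the dashed line is the median of all 11860 genes tested, 0.10. Hsp90aa1 at 0.98 and Hspa8 at 0.74 lie farthest to the right and Cryab at -1.30 farthest to the left, with the widest error.

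Cryab, whose level was not resolved, is left out of the order of levels. In labelled libraries the order of means was Hspa8, Hsp90aa1, Hspe1, Hspb1, Hspd1, Dnajb1, Hsph1, Hspa1b and Hspa1a. In controls it was Hspa8, Hspe1, Hsp90aa1, Hspb1, Hspd1, Dnajb1, Hsph1, Hspa1b and Hspa1a. In both groups Hspa8 lay above every value of the other genes. Next after it, Hsp90aa1, Hspe1 and Hspb1 each overlapped their neighbour in the order, as did Hspb1 and Hspd1, Dnajb1 and Hsph1, and Hspa1b and Hspa1a.

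The scaling between libraries sets the zero of these differences. Under a scaling to an equal sum outside the acinar enzymes, and to equal implied fragment totals, the median of all genes moved from 0.10 to 0.84 and 1.13 on the log2 scale. Relative to that median, Hspa8 was at 0.64 as fitted and at 0.88 and 0.96 under those scalings, and Hsp90aa1 at 0.88, 1.09 and 1.15. Hspd1 was at -0.01, 0.17 and 0.22, and Hspe1 at -0.22, -0.01 and 0.06. Under median-ratio scaling Hspa8 and Hsp90aa1 were at 0.59 and 0.83 relative to a median of -0.04. Quantile normalization, with the same median, put Hspa8 at 1.31 and Hsp90aa1 at 1.22. None of the 8 genes passed under any of the 4 other scalings.

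Ratios of chaperone genes within a library are free of that scaling. The 5 ratios were chosen after the values were seen, so they are given as a description with no test. Hspa8 over Hspa5 (BiP, the HSP70 of the endoplasmic reticulum) was 3.55, 1.96, 2.47 and 1.33 in labelled libraries 1 to 4, against 0.912, 0.923, 1.10 and 1.00 in controls 1 to 4. It was higher in 4 of 4 labelled libraries than in any control, a log2 difference of 1.15, which was 0.71 without labelled libraries 1 and 3, 1.31 within the BKD titles and 0.96 within the others. Over labelled libraries 1 to 4 this ratio ran in the reverse order of the acinar enzyme sum. Hspa5, its denominator, was at 55.2, 94.4, 95.5 and 139.5 rescaled FPKM in labelled libraries 1 to 4, against 106.8 to 145.9 in controls, and the part of acinar content in the ratio was not tested. Hspa8 over Hspa9 (mortalin, the mitochondrial HSP70) averaged 7.21 ± 0.949 in labelled libraries and 5.47 ± 0.851 in controls (SD, n = 4 each; log2 difference 0.40), with overlap. Hsp90aa1 over Hsp90ab1, its constitutive cytosolic partner, averaged 0.295 ± 0.0728 in labelled libraries and 0.267 ± 0.0747 in controls (log2 difference 0.15). Hsp90aa1 over Hsp90b1, the HSP90 of the endoplasmic reticulum, averaged 0.604 ± 0.195 in labelled libraries and 0.377 ± 0.102 in controls (log2 difference 0.65), and Hspe1 over Hspd1 1.97 ± 0.676 in labelled libraries and 2.23 ± 0.366 in controls (log2 difference -0.22).

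**Figure D4:**
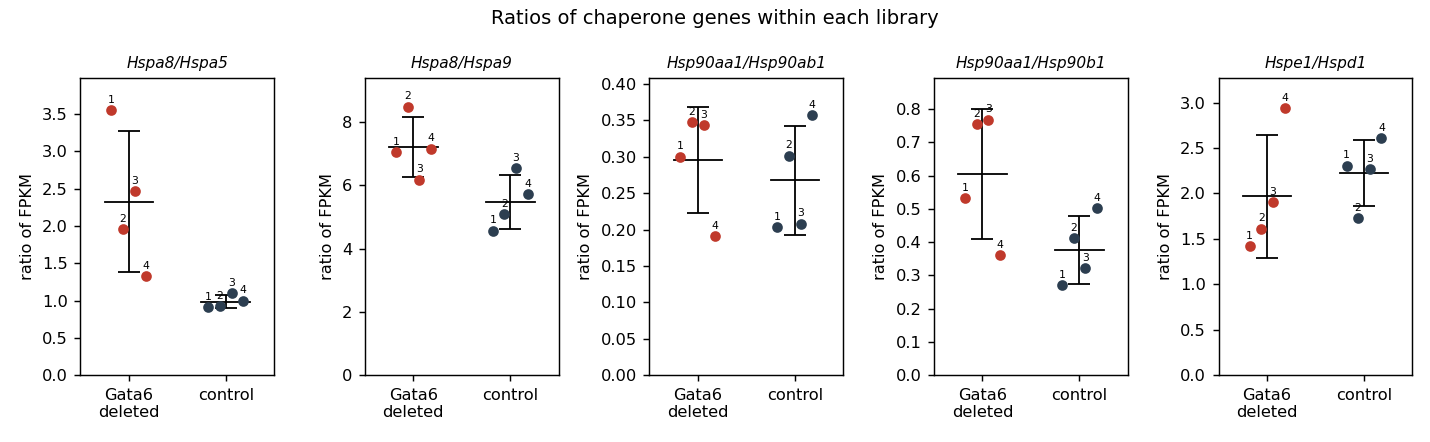
Ratio of the FPKM of chaperone genes within each library (linear axes from 0), libraries labelled Gata6-deleted left and controls right, numbered by library, with mean and SD. Only the ratio of Hspa8 to Hspa5 has groups that do not overlap, from 1.33 to 3.55 in labelled libraries and from 0.912 to 1.10 in controls.

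The rest of the chaperone system was read from 12 lists with 115 genes written from textbook knowledge, of which 96 entries were tested. None passed over all genes in limma (0 higher and 0 lower), while 17 were higher and 11 lower at an unadjusted p under 0.05, where 17.9% of all genes tested were higher and 12.2% lower. The median log2 fold change was 0.06, with 51 positive and 45 negative. Groups did not overlap for 8 higher and 10 lower, against 10.9% and 7.62% of all genes tested. Among the regulators, Hsf1, the heat shock factor itself, was at 2.88 ± 0.467 rescaled FPKM in labelled libraries and 2.93 ± 0.638 in controls (log2 -0.01), and Hsbp1, which binds HSF1, had a log2 fold change of -0.21. Of the other HSP70 genes, Hspa4 had 0.39, Hspa13 -0.42 and Hspa14 0.66. Hsp90ab1 was at 139 ± 24.5 in labelled libraries and 75.8 ± 6.02 in controls (SD, n = 4 each), with no overlap and a log2 fold change of 0.86 (unadjusted p = 0.00329, adjusted p = 0.0987 in limma). The J-domain gene Dnaja1 was at 18.4 ± 3.82 in labelled libraries and 10.7 ± 3.07 in controls (log2 0.75, adjusted p = 0.114 in limma), while Dnajc7 had -0.02.

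Co-chaperones were divided, with 10 positive and 8 negative of 18 tested. Bag1, a nucleotide exchange factor of HSP70, was at 20.8 ± 5.31 rescaled FPKM in labelled libraries and 35.2 ± 3.41 in controls (log2 -0.76, adjusted p = 0.103 in limma), and Fkbp4, an immunophilin of HSP90 complexes, had -0.58. Groups did not overlap for Bag1, and overlapped for Fkbp4. They did not overlap either for Ppid (log2 0.74) and Chordc1 (0.34), which were higher, and for Stub1 (-0.40), which was lower, and Ppid, Chordc1 and Stub1 were named after their values were seen. In the CCT chaperonin, which folds actin and tubulin, the median was 0.15, with Tcp1 at -0.20, Cct5 at -0.15 and Cct8 at 0.42. All 5 tested prefoldin subunits, which pass chains to that chaperonin, were negative, with Pfdn5 at -0.38 and Pfdn2 at -0.07. Small heat shock genes outside the set had 0.37 for Hspb8 and -0.43 for Hspb6.

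The mitochondrial chaperones and proteases had a median of -0.07 with 5 of 15 positive, and included Hspa9 at 0.33 and the protease gene Htra2 at -0.63. Clpx, the unfoldase of the ClpXP protease, was at -1.04 (unadjusted p = 0.0162, adjusted p = 0.119 in limma), with overlap between groups. Chaperones of the endoplasmic reticulum had a median of -0.40 with 8 of 12 negative. Hspa5 was at -0.41, Calr at 0.15 and Dnajb11, a co-chaperone of BiP, at -1.33, with 16.3, 47.1, 24.7 and 56.8 rescaled FPKM in labelled libraries 1 to 4, against 72.1 to 93.5 in controls. The list's median deviation from the control mean was -0.90, -0.29, -0.51 and 0.21 on the log2 scale in labelled libraries 1 to 4, lowest in labelled libraries 1 and 3, where the acinar enzyme sum was lowest, and above 0 in labelled library 4. The part of acinar content in these values was not tested. Of the ubiquitin and oxidative stress genes, the heme oxygenase gene Hmox1 was at 8.41 ± 4.60 in labelled libraries and 2.13 ± 0.168 in controls (log2 1.44, adjusted p = 0.0896 in limma), Ubb had -0.24 and Sqstm1 0.12. The immediate early genes, which respond to stimulation within minutes, had a median of 0.84, with 6 of 7 tested positive, Jun at 0.94, Atf3 at 1.23 and Ier2 near 0. Their summed level was 37.2 in labelled library 1, 21.0 in 2, 50.4 in 3 and 20.4 in 4, with controls at 10.8 to 20.3. It was highest in labelled libraries 1 and 3, where Hspa1b was also highest. Hspa1a, however, was higher in labelled library 2 (0.51) than in 3 (0.478). The part of tissue handling in these levels was not tested.

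**Figure D5:**
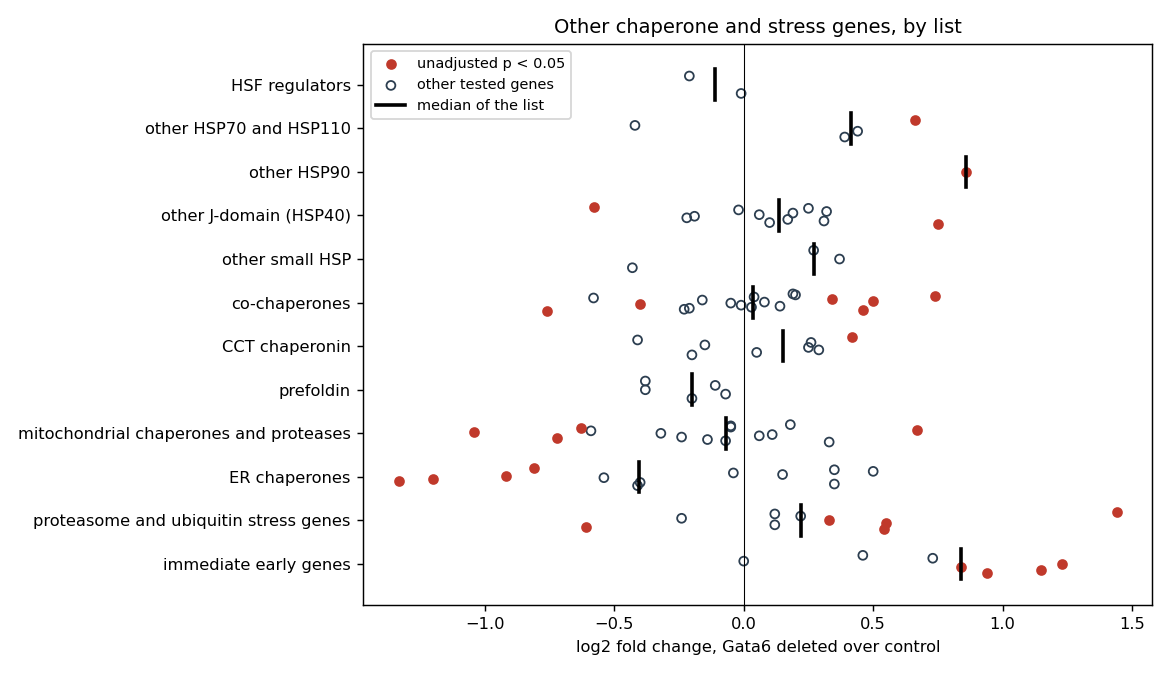
Log2 fold change (libraries labelled Gata6-deleted over controls) of each tested gene in 12 chaperone and stress lists, with the median of each list as a black bar; filled points had an unadjusted p under 0.05 in limma and none passed after adjustment. Of the immediate early genes (median 0.84), 6 of 7 lie right of 0, and the endoplasmic reticulum chaperones (median -0.40) spread to the left, down to -1.33.

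Genes that followed a member over the 8 libraries were ranked by Pearson's r of log2 levels, as a description that includes the difference between groups. The members themselves and all genes of the chaperone, stress and cell type lists were left out of this ranking. How closely those followed a member is thus not shown. For Hspa8 they were Ddx21 (0.991), Trim25 (0.989) and Taf5l (0.980). For Hspa1a they were Sult5a1 (0.993), Ube3a (0.989) and Prrc2c (0.987), and for Hspd1 Ascc2 (0.974), Chd3 (0.974) and Flywch1 (0.973). The points share library, depth and scaling, and the coefficients were picked as the highest of the tested genes outside the members and lists.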

How the data were processed

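For each of the 8 libraries the authors deposited gene-level FPKM values, each with a lower and an upper bound and a status flag. The submitters' processing notes name TopHat2 2.0.4 with Bowtie, Cufflinks 2.0.1, CASAVA 1.8, and mm9 and NCBIM37 as builds. How strand, gene models and scaling were set is not given in the sources used here. The deposited FPKM values do not sum to a fixed total, and were divided by 100000. Values of IDs on several entries were summed, and starts were raised by 1. Genes with status HIDATA in any library were left out of the tests and of the summed levels of lists, and all 10 members had status OK in every library. Implied fragments are the squared ratio of the FPKM to its SD, the SD taken as the distance to the upper bound divided by 2, over genes with status OK. They are no counts, so no count test was run, and they do not cover the spread between animals. They also do not follow the level across genes: in control 1, Cryab at 49.4 rescaled FPKM implied 0.745 and Hspb1 at 17.1 implied 48.0. Whether the intervals hold more than counting error is not given in the sources used here.

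Genes with a mean of at least 1 were tested on log2(rescaled FPKM + 1) by limma (version 3.58.1, under R 4.3.3) with an intensity trend, two-sided, with Benjamini-Hochberg adjustment over all genes tested and a threshold of 0.05; fold changes on this scale understate changes of low genes. A positive fold change means more in the labelled group. The members and lists were chosen with earlier results of these data known. Named were all members and, in each list, genes that passed or else the 2 of highest mean and the 1 of largest change, apart from genes said to be named after their values were seen. The alternatives were other pseudocounts, minimums, scalings and variance models, the title prefix, and libraries left out. The listed symbols Pfdn6 and Adgre1 matched no symbol in the tables and were not used here.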

Additional observations from a re-analysis of the deposited data

Results flagged for a closer look

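Hspb1 in control 1 was 17.1 rescaled FPKM, above the other controls at 12.0 to 12.5. Dnajb1 in control 1 was 2.56 rescaled FPKM, likewise above the other controls at 1.91 to 2.00. For both genes the deposited interval of control 1 overlapped that of each other control. Control 1 is the only control with a BKD title. In all, 30 groups of 4 libraries were examined for a library standing apart, where chance gives about 1 in 20. The flags given here lie near that share.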

How the results depend on the processing

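Of the 8 tested members 0 were called higher, except for 2 (Hspa8 and Hsp90aa1) with library weights, where 19.5% of all genes were called higher, and between 0 and 2 over the fits that leave out 1 library, the 2 without labelled library 4, where 11.5% of all genes were; 0 were called lower in every alternative. Hspa8, Hsp90aa1, Cryab and Dnajb1 kept their sign throughout, Cryab at -0.362 under equal sums and -0.008 under implied totals. The others turned as follows: Hspd1 to -0.093 under median-ratio scaling; Hsph1 to -0.001 and Hspe1 to 0.024 under quantile normalization; Hspe1 to 0.827 and 1.183 under equal sums and implied totals; Hspb1 to -0.007 with the prefix as covariate, -0.012 in BKD titles, -0.002 in ASK and BSH titles, between -0.036 (without labelled library 3) and 0.358 over the fits leaving out 1 library, and -0.168 without labelled libraries 1 and 3. The log2 ratio of Hsp90aa1 to Hsp90ab1 turned to -0.012 without labelled libraries 1 and 3. The members' median of 0.209 was 0.103 with a pseudocount of 5, 0.054 under median-ratio scaling, 0.094 under quantile normalization, 0.984 and 1.296 under equal sums and implied totals, 0.293 with library weights, 0.025 in BKD titles and 0.093 without labelled libraries 1 and 3.

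Over all genes, 26 were called higher and 23 lower. Other settings gave 14 higher (pseudocount of 5), 11 lower (no minimum), 15 lower (minimum of 5), 12 higher and 18 lower (quantile), 20 higher and 0 lower (equal sums), 5 higher and 0 lower (implied totals), 2316 and 1478 (library weights), 4 and 1 (prefix as covariate), 0 and 16 (BKD titles), 89 and 2 (ASK and BSH titles) and 11 and 2 (without labelled libraries 1 and 3). Leaving out 1 library gave 7 to 1366 higher and 3 to 1200 lower, the most without labelled library 4. In the title subsets 1 group has a lone library, assumed to vary like the others. The cause of these shifts was not tested. Leaving out genes with status FAIL, added after the files were seen, again gave 26 and 23. No paired analysis was possible because the labels give no replicate numbers shared by the groups. Few implied fragments limit Hspa1a and Hspa1b, and intervals that reach down to 0 in all 8 libraries limit Cryab.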
